A study of Mus musculus with 2 samples.

Results

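The genes described here are 32 genes of the unfolded protein response and of the secretory pathway of the endoplasmic reticulum (ER), chosen by name from the 32285 genes of the deposited matrices. All 32 names were found, on 33 rows, because Ddit3 has a second, overlapping entry with 0 UMIs (ENSMUSG00000116429), so that ENSMUSG00000025408 alone carries its values. The RNA came from femoral marrow and implant-adherent cells of mice with an osteoporotic fracture, measured in droplets with the 10x Chromium 3′ v3 kit, in 2 libraries. In the Mg-TAGelMA group the fracture was held by a magnesium intramedullary nail bearing TAGelMA, and in the Mg group by a magnesium nail without it. GelMA is gelatin methacryloyl, a hydrogel made from gelatin, while TA is left unexplained in the labels. Fracture, osteoporosis and magnesium were thus common to both groups. Strain, age, the way osteoporosis was brought about, the time after surgery and the number of mice behind each library are not given in the sources used here. With 1 library per nail no comparison could be tested, and every interval below is a 95% interval of counting error only, so that a difference between the libraries is not shown to be a difference between the nails.

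The ER is where proteins bound for secretion or for the cell surface enter the secretory route, are folded, joined by disulphide bonds and glycosylated. When folding demand exceeds capacity, sensors in the ER membrane start the unfolded protein response, in which the transcription factors XBP1, ATF6 and ATF4 raise chaperones, folding enzymes and the machinery that returns misfolded proteins to the cytosol for degradation. In marrow this equipment is best known from plasma cells, which secrete antibody and need Xbp1 for it, and granulocyte precursors load it while they make granule proteins. Counts of 3′ ends do not tell spliced from unspliced Xbp1 RNA.

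Several of the genes carry in their promoters the ER stress response element (ERSE, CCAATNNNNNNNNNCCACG), known as a binding site of ATF6 and XBP1 together with NF-Y, or its second form (ERSE-II, ATTGGNCCACG). RefSeq promoter windows of 300 bases, 250 before to 50 after the start, on GRCm38.p6, were found for 27 of the 32 genes. Searched on both strands, ERSE stood in 8 of the 27 windows (29.6%), against 39 of 32851 windows over all genes (0.119%). ERSE-II stood in 2 (7.41%), against 12 of all windows (0.0365%). The other 17 windows held neither form. The genes were chosen by name as genes of this response, so their share of windows with a site is not independent of that choice. The sites follow as the motif reads, 5′ to 3′, with its fixed bases in capitals.
Hspa5: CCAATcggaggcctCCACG
Hsp90b1: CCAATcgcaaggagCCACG
Hsp90b1: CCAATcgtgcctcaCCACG
Calr: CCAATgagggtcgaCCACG
Canx: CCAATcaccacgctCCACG
Dnajc3: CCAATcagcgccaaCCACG
Creld2: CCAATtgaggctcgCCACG
Pdia6: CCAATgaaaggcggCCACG
Derl3: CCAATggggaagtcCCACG
Dnajb11: ATTGGcCCACG
Herpud1: ATTGGgCCACG
The ERSE of Hspa5 lies at chr2:34772025-34772043, and the pair of Hsp90b1 at chr10:86705638-86705656 and chr10:86705533-86705551. Those of Calr and Canx lie at chr8:84847075-84847093 and chr11:50325800-50325818, and those of Dnajc3 and Creld2 at chr14:118937827-118937845 and chr15:88819520-88819538. The sites of Pdia6 and Derl3 are at chr12:17266491-17266509 and chr10:75893242-75893260. The ERSE-II sites of Dnajb11 and Herpud1 are at chr16:22857852-22857862 and chr8:94386377-94386387. The site of Dnajb11 begins just inside the transcript, and the others lie before the start. The core of the unfolded protein response element, TGACGTG, was found in the Hspa5 window only (3.70% of 27, against 2.01% of all windows), and the amino acid response element TTGCATCA in the Herpud1 window only (3.70%, against 0.895%). A match of letters is a description and does not show that a factor bound there in these cells.

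The whole windows are given for 4 of the genes with an ERSE, Hspa5 (chr2:34771840-34772139, plus strand), Hsp90b1 (chr10:86705395-86705694, minus strand), Creld2 (chr15:88819396-88819695, plus strand) and Derl3 (chr10:75893148-75893447, plus strand). Xbp1, Pdia4 and Edem2, whose plasma cell ratios below are also large, had neither form in their windows. Each is written on the strand of its gene. Capitals mark the fixed bases of ERSE, which read CGTGG and ATTGG where the site lies on the opposite strand.
Hspa5: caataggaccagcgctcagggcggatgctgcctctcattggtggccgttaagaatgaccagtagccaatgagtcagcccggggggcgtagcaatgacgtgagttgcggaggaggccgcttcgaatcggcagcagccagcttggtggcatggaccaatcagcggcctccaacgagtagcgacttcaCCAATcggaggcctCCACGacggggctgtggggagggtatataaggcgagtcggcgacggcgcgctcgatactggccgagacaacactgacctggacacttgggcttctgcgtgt
Hsp90b1: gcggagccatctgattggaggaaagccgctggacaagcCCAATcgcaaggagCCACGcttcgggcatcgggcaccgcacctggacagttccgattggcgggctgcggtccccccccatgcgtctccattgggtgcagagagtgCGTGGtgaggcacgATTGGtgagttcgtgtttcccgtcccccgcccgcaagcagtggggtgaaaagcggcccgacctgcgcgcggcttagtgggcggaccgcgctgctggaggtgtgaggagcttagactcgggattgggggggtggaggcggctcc
Creld2: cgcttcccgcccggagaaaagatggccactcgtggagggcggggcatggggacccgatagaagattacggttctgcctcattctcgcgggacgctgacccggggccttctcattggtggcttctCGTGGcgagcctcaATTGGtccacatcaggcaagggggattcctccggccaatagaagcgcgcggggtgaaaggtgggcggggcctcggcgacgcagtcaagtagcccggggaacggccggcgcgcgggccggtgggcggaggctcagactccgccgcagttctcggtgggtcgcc
Derl3: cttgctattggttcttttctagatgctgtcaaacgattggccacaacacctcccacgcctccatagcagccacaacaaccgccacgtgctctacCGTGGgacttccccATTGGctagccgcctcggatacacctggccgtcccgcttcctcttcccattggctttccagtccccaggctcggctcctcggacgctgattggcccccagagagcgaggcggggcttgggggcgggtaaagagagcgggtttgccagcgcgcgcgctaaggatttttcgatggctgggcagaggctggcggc

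The Mg-TAGelMA library held 79890998 UMIs in 7591 barcodes, of which 7226 cells were kept with a median of 6744 UMIs, and the Mg library held 58261391 UMIs in 9466 barcodes, of which 8122 cells were kept with a median of 3803.5 UMIs. Only 21 barcodes were shared. The Mg-TAGelMA matrix was made with Cell Ranger 7.0.1 and the Mg matrix with Cell Ranger 5.0.0, per the file headers. Whether intronic reads were counted is not given in the sources used here, and the part of that difference in any ratio between the libraries was not tested. Cells were sorted into types by lists of marker genes that hold none of the genes described, and each type is therefore written with "-like". Of the types, 14 are shown, each with at least 20 cells in each library apart from plasma cell-like cells.

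Plasma cell-like cells, taken as cells with at least 3 plasma cell markers detected and at least 50 Jchain UMIs per 10000, numbered 41 (0.567% of kept cells) in the Mg-TAGelMA library and 11 (0.135%) in that of the Mg nail. All 7 plasma cell markers had UMIs in them in both libraries. Immunoglobulin genes made up a median of 48.7% of a cell's UMIs in the Mg-TAGelMA library and 45.9% in that of the Mg nail. Early granulocyte-like cells, which express the primary granule genes Elane, Mpo, Prtn3, Ctsg and Ms4a3, numbered 246 and 108. Markers of other types were not absent from the gates: in plasma cell-like cells the summed immature neutrophil markers had a median of 37.0 UMIs per 10000 in the Mg-TAGelMA library, against 59.7 over all kept cells, and 7.55 in the Mg library, against 14.4 over all kept cells. All 7 of those markers had UMIs in the plasma cell-like cells of both libraries. In early granulocyte-like cells the same markers had a median of 37.0 UMIs per 10000 in the Mg-TAGelMA library, below that over all kept cells. In the Mg library the median was 66.7, above that over all kept cells. The part of such markers in the levels and ratios below was not tested.

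Summed over the 32 genes, UMIs amounted to 11839 CPM (UMIs of a gene per 1000000 UMIs of the type) in plasma cell-like cells of the Mg-TAGelMA library and 19192 CPM in those of the Mg library. Early granulocyte-like cells followed in the Mg-TAGelMA library with 8695 CPM, and had 6797 CPM in the Mg library. Basophil and mast cell-like cells had 7919 and 7685 CPM, and mature neutrophil-like cells were lowest at 1888 and 2132 CPM, against 4074 and 3857 CPM over all kept cells of the Mg-TAGelMA and Mg libraries. Gene by gene, plasma cell-like cells had the highest level of the 14 types for 18 genes in the Mg-TAGelMA library and for 24 in the Mg library, the 18 among them. Early granulocyte-like cells were highest for 8 genes and 1 gene, with P4hb in both libraries, and basophil and mast cell-like cells for 2 and 4, with Hspa5 in both.

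**Figure D1:**
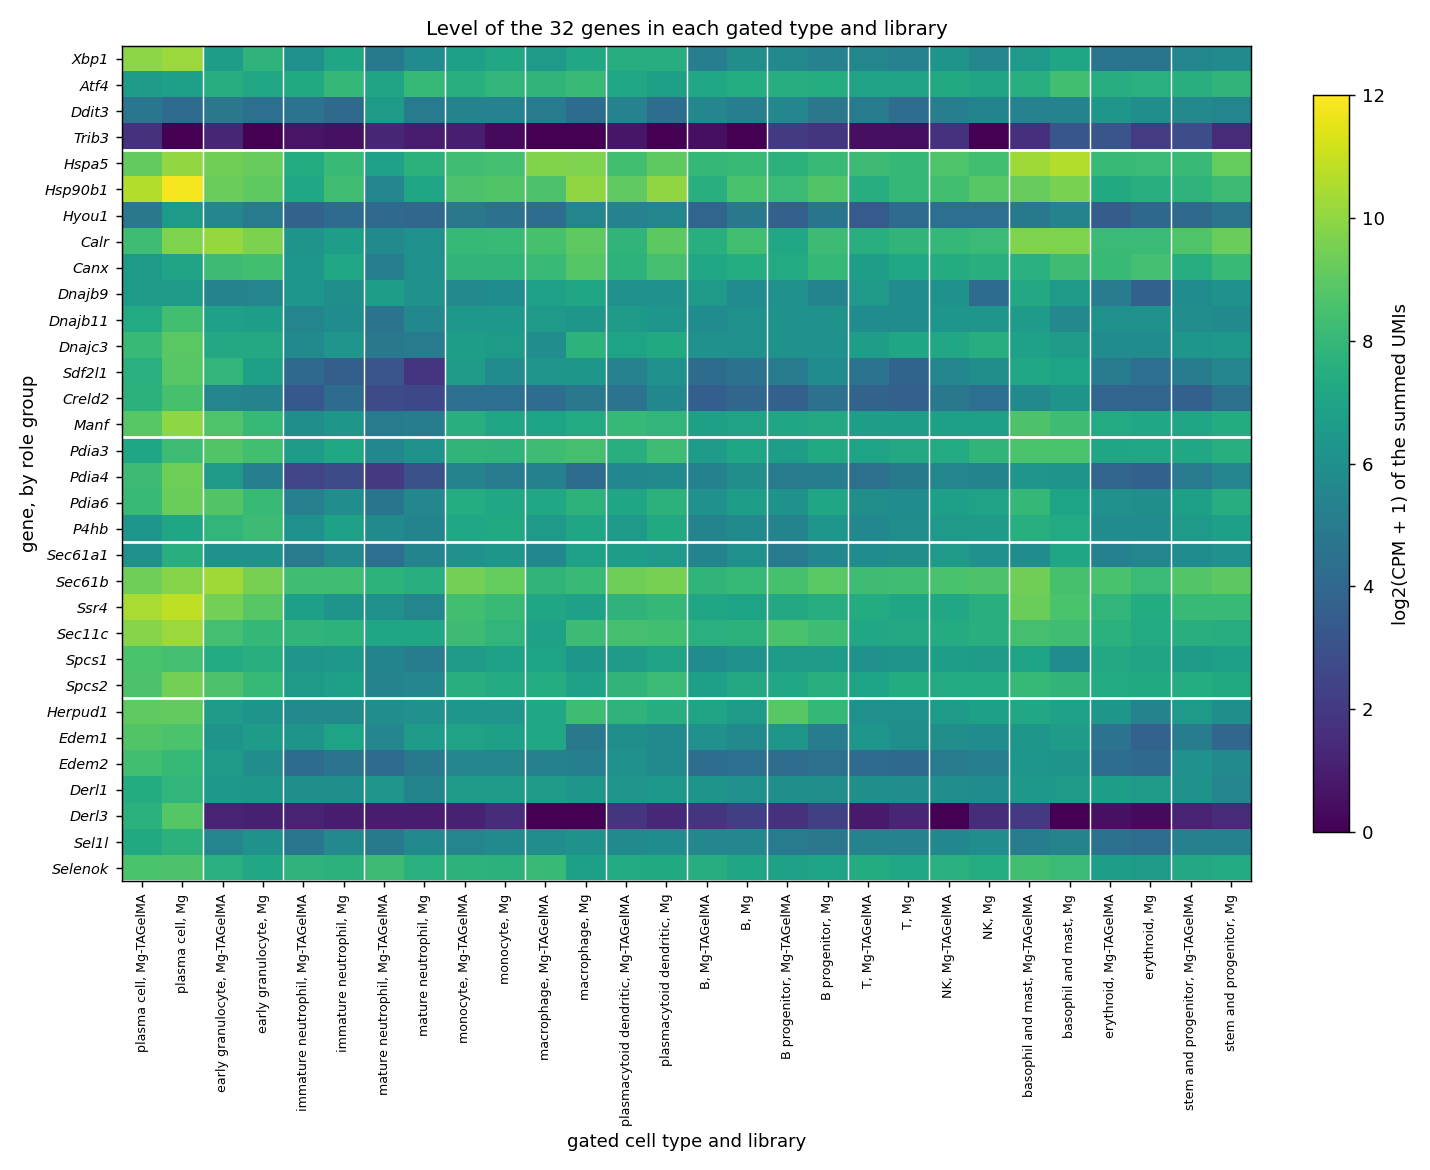
Levels of the 32 genes (rows, ordered by role) in 14 marker-gated types of the Mg-TAGelMA library and of the Mg library (columns), as log2(CPM + 1) of UMIs summed over the cells of a type. Plasma cell-like cells had the highest level for 18 genes in the Mg-TAGelMA library and 24 in that of the Mg nail, and mature neutrophil-like cells had the lowest summed level.

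Set against all other kept cells of the same library, plasma cell-like cells had higher levels for most of the 32 genes. A gene was counted as higher or lower when the interval of its ratio lay wholly beyond 2-fold and its level reached 50 CPM on the higher side. By this size rule 18 of 32 genes were higher with the Mg-TAGelMA nail, where 29 reached 50 CPM and 4.49% of all genes at that level were higher. In the Mg library 25 of 32 were higher, where 30 reached 50 CPM and the share over all genes was 4.37%. None was lower in either library, against 45.2% and 19.4% of all genes. The median log2 ratio of the genes at 50 CPM was 1.69 and 2.23, against -1.32 and -1.19 over all genes.

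Immunoglobulin genes held 47.9% of all plasma cell-like UMIs in the Mg-TAGelMA library and 45.1% in that of the Mg nail, and CPM is a share of the whole total. TMM scaling moved all plasma cell ratios up by 1.01 on the log2 scale in the Mg-TAGelMA library and by 0.81 in the Mg library, and 25 and 26 of the 32 genes were then higher. With immunoglobulin genes left out of the totals, 23 and 27 were higher. The CPM ratios that follow keep all genes in the total. The deepest plasma cell-like cell held 4.45% of their UMIs in the Mg-TAGelMA library and 15.8% in that of the Mg nail, and without it 18 and 22 genes were higher, with Hyou1, Sec61a1 and Sec61b no longer past the rule in the Mg library. When each gene was taken without the cell that held most of its UMIs, 17 and 19 were higher. Pdia6 then fell short in the Mg-TAGelMA library, and Calr, Derl1 and Selenok, beside those 3, in that of the Mg nail.

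Of the 4 transcription and stress factors, Xbp1 alone was higher. Xbp1 (chr11:5520659-5525893, GRCm38), whose product drives the secretory programme of plasma cells, had 957 CPM in plasma cell-like cells and 66.4 CPM in the other kept cells of the Mg-TAGelMA library, 14.4-fold (13.5 to 15.3). In the Mg library it had 1173 CPM and 73.0 CPM, 16.1-fold (13.9 to 18.5). Every one of the 41 and 11 cells held Xbp1, at a median of 8.53 UMIs per 10000 (range 1.63 to 32.9) and 11.1 (7.59 to 17). Thinned to 1000 UMIs per cell, 50% of plasma cell-like cells held Xbp1 in the Mg-TAGelMA library and 54.5% in that of the Mg nail, against 5.17% and 2.89% of T-like cells. The next highest shares of the 14 types were those of plasmacytoid dendritic cell-like cells, at 20.3% and 23.8%.

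The other three factors did not go with Xbp1. Ddit3, which encodes the pro-apoptotic factor CHOP, had 25.6 CPM in plasma cell-like cells and 47.0 CPM in the other kept cells of the Mg-TAGelMA library, and 17.3 CPM (3 UMIs) and 36.2 CPM in the Mg library. Atf4, the central factor of the integrated stress response, had 94.6 and 162 CPM in the Mg-TAGelMA library and 110 and 201 CPM in the Mg library, its lowest level of the 14 types in both. Both were short of the size rule, and with immunoglobulin genes out of the totals their ratios came to 1.04 and 0.869 for Ddit3 and 1.12 and 0.991 for Atf4, so that the direction turned in the Mg-TAGelMA library. Trib3, a pseudokinase gene that ATF4 and CHOP induce, had 3 UMIs in the plasma cell-like cells of the Mg-TAGelMA library and 0 of 173097 UMIs in those of the Mg library, which by a floor of 3 UMIs allows up to 17.3 CPM.

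Among the 11 luminal chaperones and cofactors, 6 were higher in plasma cell-like cells of the Mg-TAGelMA library and 9 in those of the Mg library. Creld2, an ER-resident protein induced by ER stress, showed the largest ratio of the group, with 208 CPM in plasma cell-like cells and 16.5 CPM in the other kept cells, 12.6-fold (11 to 14.4). The Mg library gave 364 and 18 CPM, 20.3-fold (15.4 to 26.2). Hsp90b1, the ER form of the HSP90 chaperone, had 1553 and 263 CPM in the Mg-TAGelMA library, 5.90-fold (5.63 to 6.18), and 3640 and 354 CPM in the Mg library, 10.3-fold (9.49 to 11.1).

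Hsp90b1 varied widely among these cells, from 0 to 152 UMIs per 10000 around a median of 10.8 in the Mg-TAGelMA library, and from 5.25 to 87.4 around 27.7 in the Mg library. A single cell held 19.1% of its plasma cell UMIs in the Mg-TAGelMA library and 32.7% in that of the Mg nail. Hspa5, which encodes BiP, the main ER chaperone of the HSP70 family, had 559 and 289 CPM in the Mg-TAGelMA library, 1.94-fold (1.79 to 2.08), which is short of the size rule. The Mg library gave 1075 and 309 CPM, 3.48-fold (3.0 to 4.02), which is past it. Without immunoglobulin in the totals the Hspa5 ratios were 3.70 and 6.32.

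The BiP cofactors Dnajc3 and Dnajb11, the cofactor partner Sdf2l1 and the stress-induced factor Manf were past the rule in both libraries, with ratios of 2.51 to 3.60 in the Mg-TAGelMA library and 4.86 to 14.2 in the Mg library. Calr and Hyou1 were past it in the Mg library only, at 2.93-fold and 4.31-fold, against 1.12-fold and 1.32-fold in the Mg-TAGelMA library. Canx, the membrane-bound lectin chaperone, was among the few genes with a ratio below 1, with 92.2 CPM in plasma cell-like cells and 154 CPM in the other kept cells of the Mg-TAGelMA library, and 127 and 229 CPM in the Mg library. Its ratios were 1.15 and 1.01 without immunoglobulin in the totals.

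Of the 4 disulphide isomerases, 2 were higher in plasma cell-like cells of each library. Pdia4 (ERp72) had 298 CPM in plasma cell-like cells and 28.7 CPM in the other kept cells of the Mg-TAGelMA library, 10.4-fold (9.31 to 11.6), and 647 and 27.1 CPM in the Mg library, 23.9-fold (19.5 to 29.0). Pdia6 (P5) was 2.37-fold higher (2.13 to 2.64) and 6.23-fold higher (5.10 to 7.54). Pdia3, which works with calreticulin and calnexin on glycoproteins, and P4hb, the classical protein disulphide isomerase, had ratios of 0.816 and 0.824 in the Mg-TAGelMA library and 1.98 and 1.5 in the Mg library, short of the rule in both. Without immunoglobulin in the totals these ratios were 1.56 and 1.58 in the Mg-TAGelMA library, so that the direction turned there, and 3.59 and 2.72 in that of the Mg nail. Without its deepest plasma cell-like cell the Mg library gave 0.927 for P4hb.

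Of the 6 genes of the translocon and signal peptidase, 4 were higher in plasma cell-like cells of the Mg-TAGelMA library and 6 in those of the Mg library. Ssr4, a subunit of the translocon-associated protein complex, had 1403 CPM in plasma cell-like cells and 240 CPM in the other kept cells of the Mg-TAGelMA library, 5.85-fold (5.57 to 6.14), and 1843 and 163 CPM in the Mg library, 11.3-fold (10.1 to 12.6). One cell held 42.9% of the Ssr4 UMIs of the 11 cells of the Mg library. Sec11c, a catalytic subunit of signal peptidase, had 907 and 255 CPM, 3.55-fold (3.35 to 3.77), and 1190 and 249 CPM, 4.78-fold (4.14 to 5.48). Its accessory subunits Spcs1 and Spcs2 were 4.45-fold and 2.63-fold higher in the Mg-TAGelMA library and 3.39-fold and 4.59-fold higher in the Mg library. The channel subunits Sec61a1 and Sec61b were past the rule in the Mg library only, at 3.43-fold and 2.42-fold, against 1.45-fold and 1.35-fold in the Mg-TAGelMA library. The deepest of the 11 cells held 45.5% of the Sec61a1 and 45.6% of the Sec61b UMIs there, and without it the ratios were 2.22 (1.31 to 3.51) and 1.56 (1.25 to 1.93), short of the rule.

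ER-associated degradation held the gene with the largest ratio of all 32. Of its 7 genes, 5 were higher in plasma cell-like cells of the Mg-TAGelMA library and 7 in those of the Mg library. Derl3, a derlin of the channel through which misfolded proteins leave the ER, had 203 CPM in plasma cell-like cells and 1.51 CPM in the other kept cells of the Mg-TAGelMA library, 135-fold (108 to 170). Its levels were 456 and 2.36 CPM in the Mg library, 193-fold (144 to 257). Derl3 UMIs were found in 39 of 41 plasma cell-like cells (95.1%) and 9 of 11 (81.8%), against 0.685% and 0.619% of T-like cells. Thinned to 1000 UMIs the shares were 17.5% and 9.09% of plasma cell-like cells and 0.690% and 0.207% of T-like cells.

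Edem1 and Edem2, which mark misfolded glycoproteins by trimming their mannose, were 5.73-fold (5.24 to 6.26) and 9.76-fold (8.78 to 10.8) higher in the Mg-TAGelMA library and 6.72-fold (5.20 to 8.54) and 10.7-fold (7.78 to 14.4) higher in the Mg library. Herpud1, a membrane scaffold of the degradation complex, had 541 CPM in plasma cell-like cells and 122 CPM in the other kept cells of the Mg-TAGelMA library, 4.42-fold (4.09 to 4.77), and 549 and 124 CPM in the Mg library, 4.43-fold (3.58 to 5.42). Sel1l, the adaptor of the ubiquitin ligase HRD1, was 4.48-fold and 5.42-fold higher. Derl1 and Selenok were past the rule in the Mg library only, at 3.38-fold and 2.79-fold, against 2.13-fold (1.85 to 2.44) and 1.85-fold in the Mg-TAGelMA library.

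**Figure D2:**
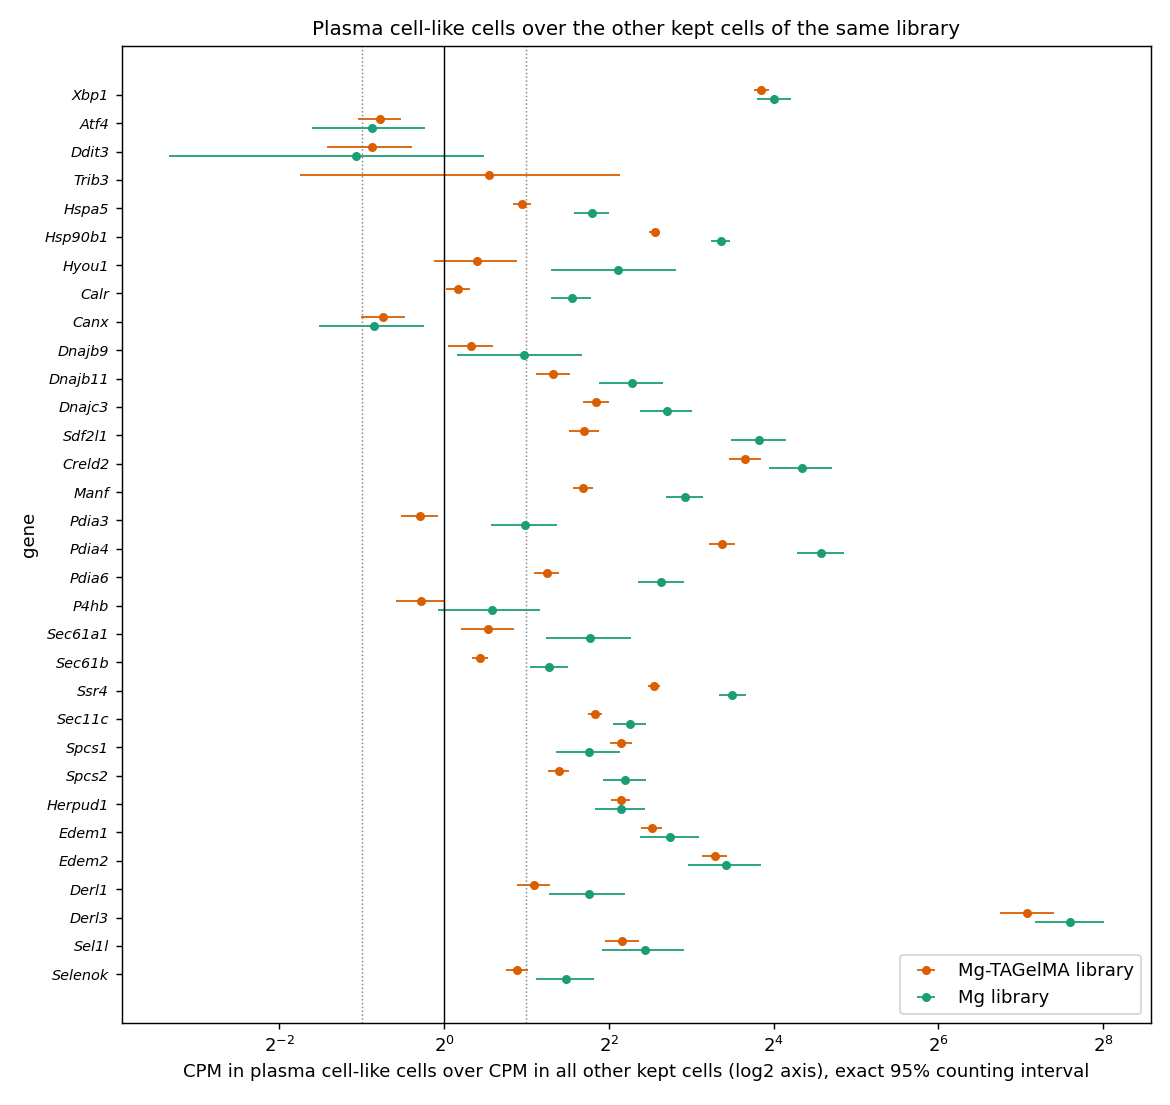
Ratio of the CPM of each of the 32 genes in plasma cell-like cells to that in the other kept cells of the same library, on a log2 axis, with 95% counting intervals, for the Mg-TAGelMA library (41 cells) and the Mg library (11 cells); dotted lines mark 2-fold. Derl3 stands farthest right at 135-fold and 193-fold, Xbp1 at 14.4-fold and 16.1-fold, while Atf4, Ddit3 and Canx lie left of 1 in both libraries, though in the Mg-TAGelMA library not once immunoglobulin genes are out of the totals (1.12, 1.04 and 1.15).

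The plasma cell ratios were also set out by promoter, for the 10 genes with ERSE or ERSE-II and the 17 without, of which 15 reached 50 CPM, with no test of the difference. In the Mg-TAGelMA library 7 of the 10 and 9 of the 17 were higher, with median log2 ratios of 1.59 and 1.70. In the Mg library 9 of the 10 and 11 of the 17 were higher, with medians of 2.46 and 2.20. Both the highest log2 ratio (Derl3, 7.07 and 7.59) and one of the few below 0 (Canx, -0.73 and -0.85, above 0 without immunoglobulin in the totals) belong to windows with an ERSE.

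Early granulocyte-like cells had higher levels of part of the genes, chaperones and disulphide isomerases among them. By the same rule 14 of 32 genes were higher than in the other kept cells in the Mg-TAGelMA library, where 26 reached 50 CPM and 12.2% of all genes were higher. In the Mg library 6 of 32 were higher, where 25 reached 50 CPM and the share over all genes was 7.4%. None was lower in either library, against 17.8% and 9.39% of all genes, and the medians of the log2 ratios were 1.21 and 0.96, against -0.036 and -0.039 over all genes. The gates of the libraries differ in depth, with a median of 34316 UMIs per cell in the Mg-TAGelMA library and 12959.5 in that of the Mg nail. With plasma cell-like cells left out of the other kept cells, 15 and 7 genes were higher. The added genes were Dnajc3 in the Mg-TAGelMA library and Edem2 in the Mg library. The ratios below keep plasma cell-like cells in, unless stated.

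Calr, which encodes the lectin chaperone calreticulin, had 1097 CPM in early granulocyte-like cells and 173 CPM in the other kept cells of the Mg-TAGelMA library, 6.35-fold (6.18 to 6.53), and 789 and 262 CPM in the Mg library, 3.01-fold (2.85 to 3.18). Sdf2l1, a partner of the BiP cofactor ERdj3, had 235 and 41.0 CPM, 5.74-fold (5.41 to 6.09), and 113 and 31.6 CPM, 3.59-fold (3.10 to 4.15). Pdia6 had 429 and 83.1 CPM, 5.16-fold (4.95 to 5.39), and 274 and 95.7 CPM, 2.86-fold (2.61 to 3.13). These genes, with Ssr4 at 3.57-fold and 2.94-fold and P4hb at 3.17-fold and 3.69-fold, were the 5 past the rule in both libraries.

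All 4 disulphide isomerases were higher in early granulocyte-like cells of the Mg-TAGelMA library, and Pdia6 and P4hb in those of the Mg library. P4hb had 240 and 75.6 CPM in the Mg-TAGelMA library and 300 and 81.4 CPM in the Mg library, and was highest in these cells of all 14 types in both. Hspa5 was 2.70-fold higher (2.62 to 2.78) in the Mg-TAGelMA library, with 666 and 247 CPM, and 1.98-fold (1.87 to 2.11) in the Mg library, with 597 and 301 CPM, short of the rule. Sec61b had 1234 and 399 CPM, 3.09-fold (3.02 to 3.16), and 736 and 366 CPM, 2.01-fold (1.90 to 2.12). Hsp90b1, Canx, Manf, Pdia3, Pdia4, Spcs2 and Edem2 likewise passed the rule in the Mg-TAGelMA library only, with ratios of 2.20 to 3.45 there and 1.21 to 2.43 in the Mg library.

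Xbp1 was past the rule in the early granulocyte-like cells of the Mg library, with 219 CPM, against 71.4 CPM in the other kept cells, 3.07-fold (2.76 to 3.40). In the Mg-TAGelMA library it had 101.5 and 79.3 CPM, 1.28-fold (1.19 to 1.38). With plasma cell-like cells out of the other kept cells, Xbp1 was at 1.64-fold (1.52 to 1.77) in the Mg-TAGelMA library and 3.23-fold (2.91 to 3.58) in the Mg library. Of the degradation genes, Edem2 alone was higher. With plasma cell-like cells kept among the other kept cells, this held in the Mg-TAGelMA library and not in the Mg library. With them out, Edem2 was past the rule in the Mg library too, at 2.51-fold (2.04 to 3.05). Derl3 had 11 UMIs in the early granulocyte-like cells of the Mg-TAGelMA library and 2 in those of the Mg library, 1.33 and 1.06 CPM, against 5.43 and 3.88 CPM in the other kept cells, which include the plasma cell-like cells. With those left out the other kept cells had 1.53 and 2.41 CPM, and the ratios were 0.866 (0.419 to 1.62) and 0.440 (0.0527 to 1.62). Herpud1 and Ddit3 had ratios of 0.730 and 0.529 in the Mg-TAGelMA library and 0.571 and 0.549 in the Mg library, so that Herpud1, higher in plasma cell-like cells, lay below 1 here.

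**Figure D3:**
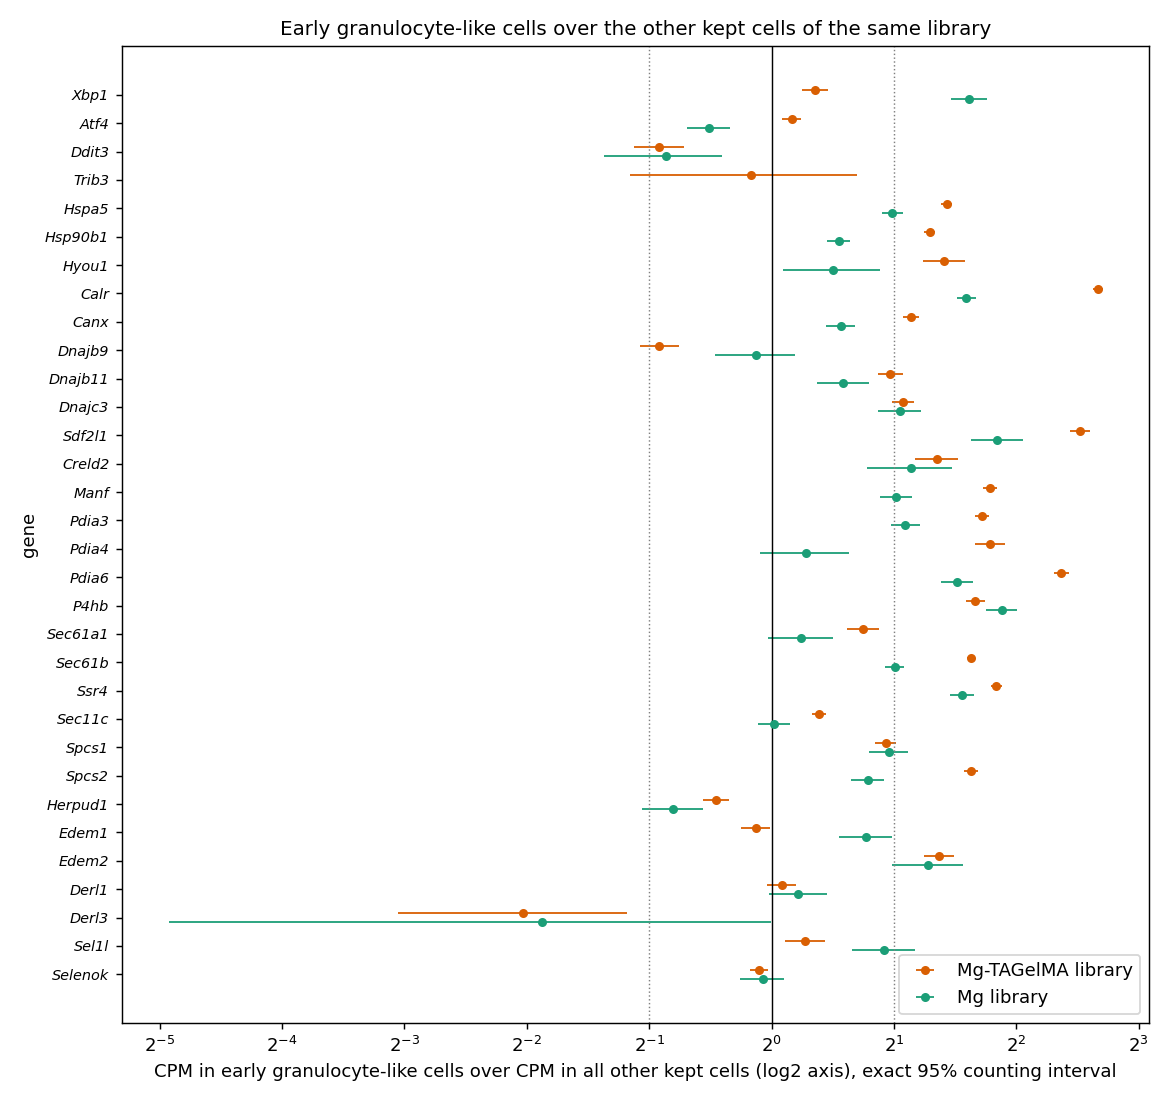
Ratio of the CPM of each of the 32 genes in early granulocyte-like cells to that in the other kept cells of the same library, on a log2 axis, with 95% counting intervals, for the Mg-TAGelMA library (246 cells) and the Mg library (108 cells); dotted lines mark 2-fold. Calr lies at 6.35-fold and 3.01-fold, and Derl3, Ddit3 and Herpud1 lie left of 1 in both libraries. Derl3 is at 0.866 (0.419 to 1.62) and 0.440 (0.0527 to 1.62) once plasma cell-like cells are out of the other kept cells.

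Outside these types, Hspa5 was highest in basophil and mast cell-like cells, at 1254 CPM in the 76 cells of the Mg-TAGelMA library and 1557 CPM in the 20 cells of the Mg library. That was 4.46-fold (4.20 to 4.73) and 5.05-fold (4.36 to 5.82) over the other kept cells. One cell held 35.6% of the Hspa5 UMIs of the 20, and without it the level in the Mg library was 1072 CPM, level with the 1075 CPM of plasma cell-like cells, and the ratio 3.48 (2.89 to 4.15). In all, 5 of the 32 genes were higher in these cells in the Mg-TAGelMA library, against 10.5% of all genes, and 2 in the Mg library, against 7.95%. Calr was past the rule in both, at 3.07-fold and 2.89-fold, but one cell held 29.3% of its UMIs in the Mg library, and without it the ratio was 2.41 (1.88 to 3.05), short of the rule. Hspa5 was also past it in macrophage-like cells, with 847 and 823 CPM, 2.89-fold (2.32 to 3.56) and 2.65-fold (2.14 to 3.26), where 13.2% and 10.4% of all genes were higher. These macrophage-like cells numbered 33 and 31 and were shallow, with medians of 910 and 1264 UMIs.

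Herpud1 was also higher in B progenitor-like cells, with 475 CPM, against 117 CPM in the other kept cells of the Mg-TAGelMA library, 4.06-fold (3.82 to 4.31), and 253 and 103 CPM in the Mg library, 2.46-fold (2.33 to 2.59). It was the one gene of the 32 past the rule in that type in both libraries, against 15.1% and 6.14% of all genes that were higher there. Past the rule in the Mg library alone were Hsp90b1 in plasmacytoid dendritic cell-like cells (1027 and 356 CPM, 2.88-fold), where 8.18% of all genes were higher, and Xbp1 and Edem1 in immature neutrophil-like cells (2.14-fold and 2.59-fold), where 13.1% were.

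Neutrophil-like cells had the lowest level of the 14 types for most of these genes, but a large share of all genes was lower in them too. In mature neutrophil-like cells of the Mg-TAGelMA library 16 of 32 genes were lower than in the other kept cells, against 36% of all genes, and in those of the Mg library 7, against 31.9%. The count of the Mg library lies below that share. Calr was 6.03-fold lower (5.56 to 6.55) and 4.5-fold lower (3.58 to 5.74), and Hsp90b1 was 7.10-fold lower (6.52 to 7.75) and 2.77-fold lower (2.37 to 3.26). Ddit3 went the other way in the Mg-TAGelMA library, with 93.4 CPM in mature neutrophil-like cells and 38.0 CPM in the other kept cells, 2.45-fold (2.28 to 2.64), where 14.2% of all genes were higher. In the Mg library Ddit3 had 29.0 CPM in these cells, from 34 UMIs. Kept cells of that library outside the early granulocyte-like and plasma cell-like gates had 36.8 CPM, so no rise was seen there.

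In immature neutrophil-like cells 9 genes were lower in the Mg-TAGelMA library, against 28.2% of all genes, and 3 in the Mg library, against 25.6%. The first count lies near that share and the second below it. Calr, Ssr4 and Herpud1 were among the lower genes in both libraries. Set beside the early granulocyte-like cells, which precede them in granulocyte development, Calr thus had 1097, 72.6 and 52.4 CPM in early granulocyte-like, immature and mature neutrophil-like cells of the Mg-TAGelMA library, and 789, 105 and 63.2 CPM in those of the Mg library. Erythroid-like cells had lower Xbp1 (3.46-fold and 3.79-fold), Edem1 (3.67-fold and 5.73-fold) and Dnajb9 (2.63-fold and 4.73-fold) in both libraries, in which 23% and 26.5% of all genes were lower.

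**Figure D4:**
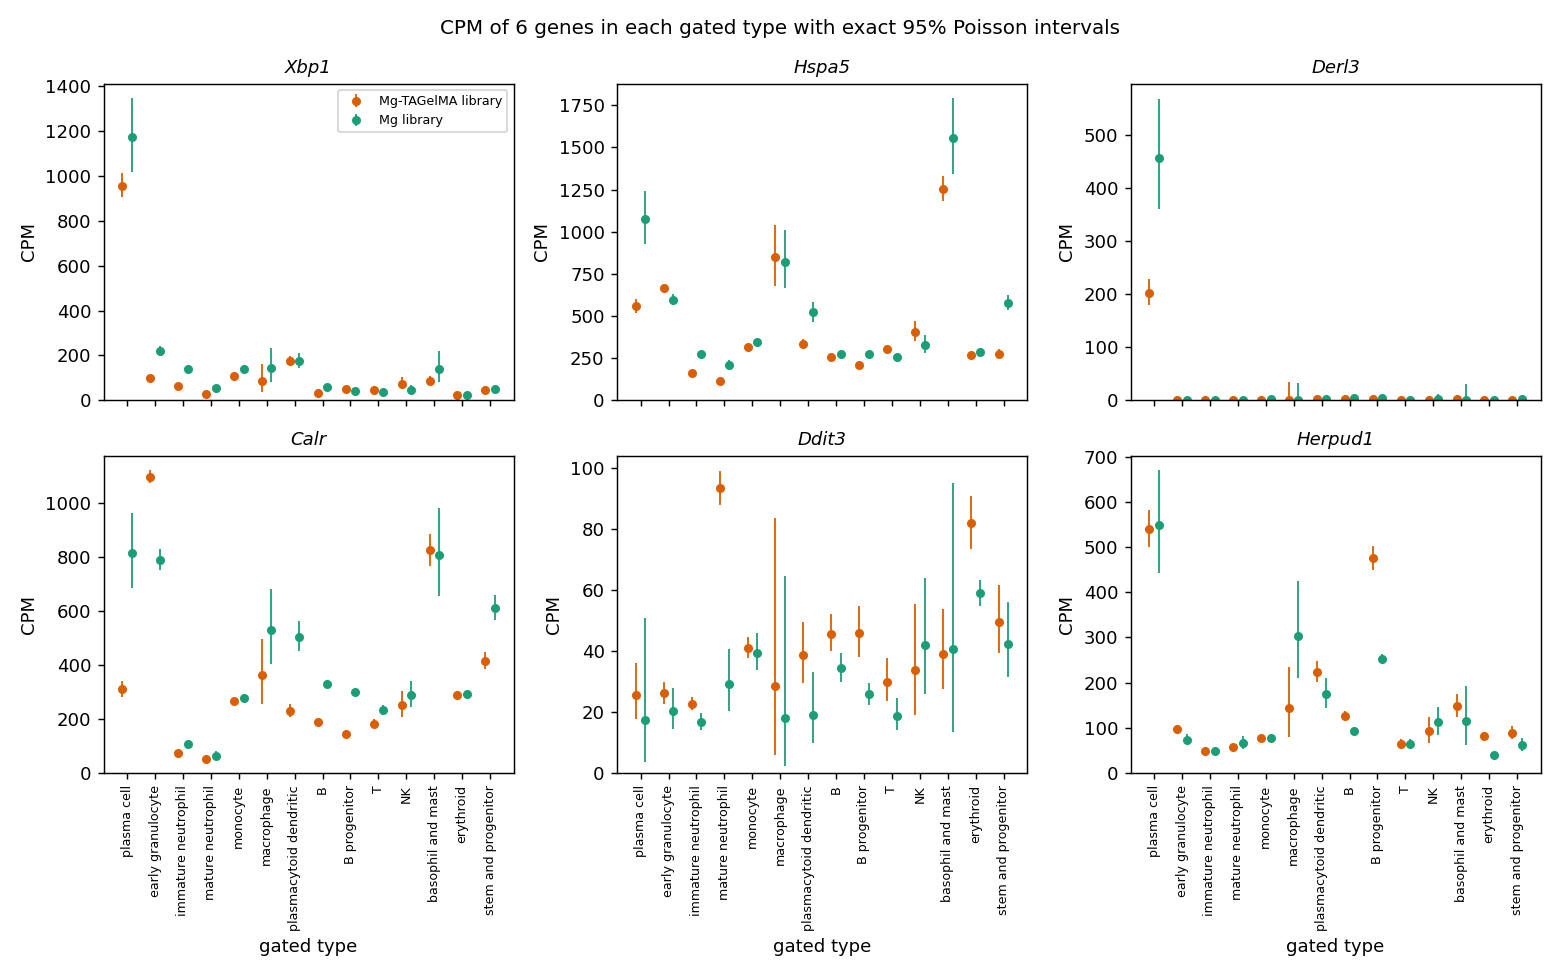
CPM of Xbp1, Hspa5, Derl3, Calr, Ddit3 and Herpud1 in 14 marker-gated types of the Mg-TAGelMA and Mg libraries, from UMIs summed over the cells of a type. Xbp1, Derl3 and Herpud1 are highest in plasma cell-like cells of both libraries, Hspa5 in basophil and mast cell-like cells of both (in the Mg library by 1 cell of 20), and Calr in early granulocyte-like cells of the Mg-TAGelMA library (1097 CPM) and plasma cell-like cells of the Mg library (815 CPM).

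Other genes of the same pathways, listed apart from the 32, were set against the same other kept cells. In plasma cell-like cells, where 4.49% and 4.37% of all genes at 50 CPM were higher, 7 of 23 folding enzymes were higher with the Mg-TAGelMA nail and 10 with the Mg nail, and none was lower. Txndc5, a disulphide isomerase of plasma cells, had 894 CPM in plasma cell-like cells and 28.6 CPM in the other kept cells of the Mg-TAGelMA library, 31.3-fold (29.1 to 33.6), and 1687 and 44.3 CPM in the Mg library, 38.1-fold (33.6 to 43.0). Fkbp11, a prolyl isomerase of the secretory pathway, was 14.7-fold and 70.4-fold higher, and Selenom 6.61-fold and 16-fold.

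Of the 22 other stress sensors and factors, 2 were higher and 2 lower in plasma cell-like cells of the Mg-TAGelMA library, and 1 was higher and 1 lower in those of the Mg library. Cebpb, a transcription factor gene of myeloid cells, was the lowest of the listed genes, with ratios of 0.168 and 0.198. Of 26 genes of translocation and glycosylation 2 and 4 were higher, of 18 other degradation genes 5 and 3, and of 28 genes of ER to Golgi traffic 1 and 2, the traffic genes near the share of all genes. Of these 3 lists, none was lower except 1 traffic gene in the Mg-TAGelMA library. The smallest ratios after Cebpb were 0.396 and 0.341 for Uggt1, a folding sensor of glycoproteins, and 0.397 and 0.482 for Ube2j2, a ubiquitin-conjugating enzyme.

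In early granulocyte-like cells of the Mg-TAGelMA library 12 of the 26 translocation and glycosylation genes were higher, with 7 traffic genes, 5 folding enzymes and 1 degradation gene. In those of the Mg library the counts were 1, 3, 2 and 0. Over all genes at 50 CPM 12.2% were higher with the Mg-TAGelMA nail and 7.4% with the Mg nail, so that the Mg counts lie near or below it. Of the folding enzymes 1 was lower in each library, and of the stress sensors and factors none was higher and 3 and 2 were lower. The largest ratios were those of Tmed3, a cargo receptor of early secretory vesicles, at 3.38-fold and 5.39-fold, Ddost, a subunit of the oligosaccharyltransferase, at 3.87-fold and 2.93-fold, and Kdelr2, which returns escaped ER proteins, at 3.25-fold and 3.19-fold. The smallest was that of Ppp1r15a, the stress-induced regulator of eIF2α dephosphorylation, at 0.451 and 0.307.

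Between the libraries, none of the 32 genes differed past the size rule over all kept cells, where 24 reached 50 CPM and 18.8% of all genes were higher and 7.63% lower in the Mg-TAGelMA library. The median log2 ratio was 0.066, against -0.013 over all genes. Ratios ran from 0.668 (0.651 to 0.685) for Canx, with 152 and 228 CPM, to 1.82 (1.72 to 1.92) for Sdf2l1, with 62.5 and 34.4 CPM. This comparison mixes cell types in unequal shares, since mature neutrophil-like cells were 29.2% of kept cells in the Mg-TAGelMA library and 6.34% in that of the Mg nail. Intron length moved with the ratios of all genes: those with at most 8 kb of intron had a median of -0.33 and longer ones 0.18. The genes described had 0.096 and 0.055 in the same classes, and the part of intron counting in these values was not tested.

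Within the 8 types with at least 100 cells in each library, 3 gene and type pairs were higher and 2 lower in the Mg-TAGelMA library. Over all genes the share higher was 7.86% in early granulocyte-like, 9.07% in immature and 12.4% in mature neutrophil-like, 14.4% in monocyte-like, 22% in B-like, 18% in B progenitor-like, 20.3% in T-like and 15.1% in erythroid-like cells. The share lower was 3.13%, 4.09%, 9.45%, 1.7%, 4.26%, 1.06%, 1.88% and 1.85% in the same order of types. Pdia4 was higher in early granulocyte-like cells, with 90.5 and 35.0 CPM, 2.58-fold (2.01 to 3.38), where 7.86% of all genes were higher. Edem1 was higher in B progenitor-like cells, with 80.9 and 32.7 CPM, 2.48-fold (2.06 to 2.98), against 18% of all genes. Ddit3 was higher in mature neutrophil-like cells, with 93.4 and 29.0 CPM, 3.21-fold (2.29 to 4.67), against 12.4% of all genes. None of the 3 held under every scaling: with TMM the interval of Pdia4 and of Edem1 reached below 2-fold, and with the abundant transcripts Gm42418 and AY036118 out of the totals that of all 3 did.

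The pairs that were lower in the Mg-TAGelMA library were both of Hsp90b1. In immature neutrophil-like cells it had 144 and 322 CPM, 2.24-fold lower (2.12 to 2.36), where 4.09% of all genes were lower, and in mature neutrophil-like cells 46.3 and 133 CPM, 2.88-fold lower (2.39 to 3.44), where 9.45% were. With TMM scaling the ratios were 0.477 (0.452 to 0.503) and 0.441 (0.369 to 0.531), whose intervals cross the 2-fold line, so that neither was past the rule, and the pairs that were lower were instead Xbp1 in early granulocyte-like cells (0.437) and Calr in B progenitor-like cells (0.401). With clusters in place of gates Hsp90b1 was 5.60-fold lower (4.84 to 6.48) in mature neutrophil-like cells. In B-like cells it had 182 and 371 CPM, 2.04-fold lower (1.89 to 2.21), short of the rule. In early granulocyte-like cells it had 602 and 525 CPM, a ratio of 1.15 (1.07 to 1.23), so that its direction was not the same in every type.

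In plasma cell-like cells the Mg-TAGelMA library was below the Mg library for most of the genes, with a median log2 ratio of -0.79 over the 30 genes at 50 CPM, against -0.17 over all genes. Hsp90b1 was 2.34-fold lower, with 1553 and 3640 CPM, and Calr 2.64-fold lower, with 308.5 and 815 CPM. No other gene was past the rule, where 3.02% of all genes were lower and 8.42% higher. These values compare 41 cells with 11, and TMM scaling moved them up by 0.32 on the log2 scale. With it the ratio of Hsp90b1 was 0.533, no longer past the rule, and that of Calr 0.473 (0.389 to 0.577), likewise. Of the 11 cells of the Mg library, 1 held 32.7% of the Hsp90b1 UMIs and 1 held 29.8% of the Calr UMIs. The part of such single cells in these ratios was not tested.

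**Figure D5:**
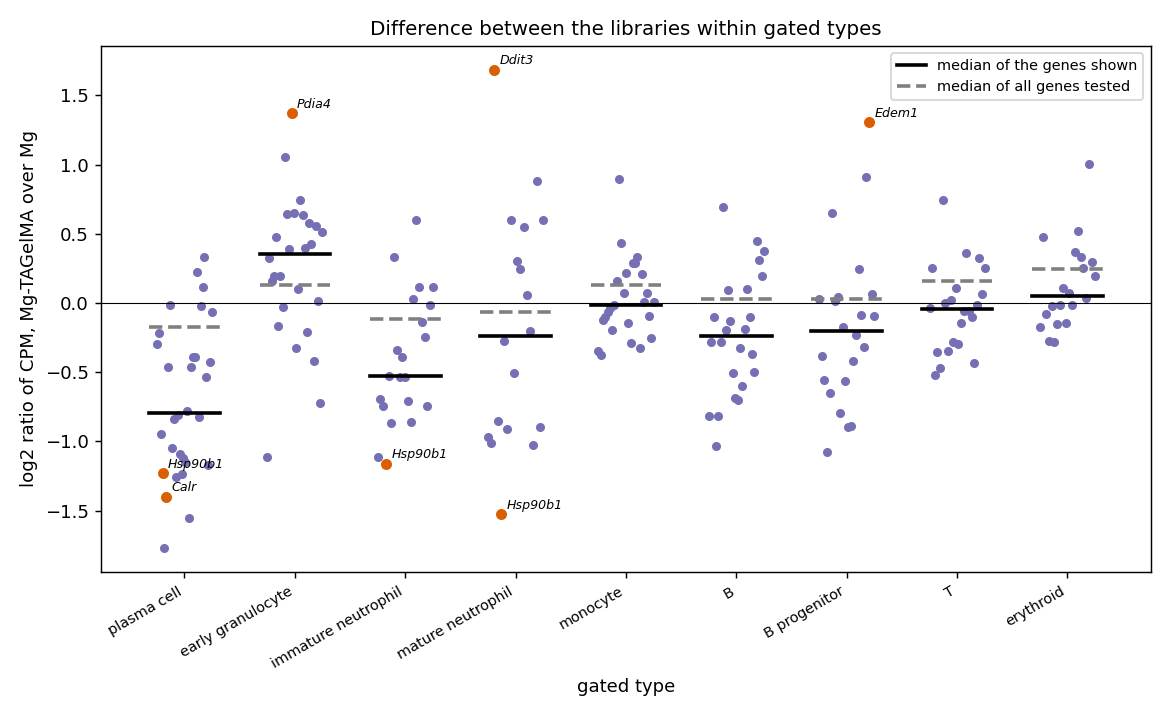
Log2 ratio of CPM in the Mg-TAGelMA library over the Mg library within plasma cell-like cells and 8 other types. Points are those of the 32 genes that reached 50 CPM in the type compared. Black bars mark the median of the genes described, grey dashed lines the median of all genes at 50 CPM, and orange points the ratios past the size rule: Pdia4, Edem1 and Ddit3 are higher, Hsp90b1 is lower in 3 types and Calr is lower in plasma cell-like cells.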

How the data were processed

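RNA of single cells was measured with the 10x Chromium 3′ v3 kit in 2 libraries, 1 per nail. The values deposited by the authors are UMI counts, as whole numbers with no scaling, for each gene in each barcode. Per the file headers they were made with Cell Ranger 7.0.1 (Mg-TAGelMA) and 5.0.0 (Mg), and the submitters' processing notes name STAR and mm10. Whether introns were counted is not given in the sources used here. The deposited gene and barcode lists carry no measured value.

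Cells with at least 200 genes and at most 15% mitochondrial counts were kept. Past the mitochondrial limit were 62 barcodes of the Mg-TAGelMA library and 1091 of the Mg library, and below the gene minimum 22 and 189. Each limit was counted on its own, so that a barcode failing both is in both counts. Scrublet called 297 doublets (3.95%) in the Mg-TAGelMA library and 197 (2.37%) in that of the Mg nail, which were removed. A cell took the type whose markers had the highest mean level relative to each gene's 99th percentile, with at least 3 markers detected, and 6577 and 6311 cells were typed. The plasma cell limit of 50 Jchain UMIs per 10000 was set after the counts had been seen. From 20 to this limit lay 0 barcodes with enough markers and 9 with too few in the Mg-TAGelMA library, and 2 and 8 in that of the Mg nail. The highest Jchain level below it in a cell with enough markers was 14.9 with the Mg-TAGelMA nail and 37.9 with the Mg nail, and 11 and 0 barcodes above it had too few markers.

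UMIs were summed per type and library and scaled to CPM. Ratios carry exact conditional binomial 95% intervals, levels exact Poisson ones, and both cover counting error only. The size rule is an interval wholly beyond 2-fold with at least 50 CPM on the higher side. There is no p-value, since cells are not replicates. A type was compared between libraries with at least 100 cells in each, and plasma cell-like cells, with fewer, apart from these. The interval code was checked on simulated data with 200 changed genes.

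The genes and lists were chosen with earlier results of these data known. Named in full are, in each role group, the genes with most UMIs and with the largest plasma cell and early granulocyte ratios, with Xbp1, Ddit3, Hspa5 and Derl3; every gene past the size rule between libraries; and of the other pathway genes those with the 3 largest and 3 smallest ratios, of which some are given. The list name Sels is not in the matrices. Positions follow an annotation that matched 99.8% of gene identifiers. Alternatives covered filters, doublets, markers, clusters, scaling, the CPM minimum, the fold, thinning to 1000 UMIs, intron length, the deepest plasma cell, the cell with most UMIs of a gene, and the other kept cells without plasma cells, the last 3 chosen after seeing the data. Tools were Python 3.11.15, scanpy 1.11.5, leidenalg 0.10.2, numpy 2.4.6, scipy 1.17.1, pandas 2.3.3, matplotlib 3.10.9, R 4.3.3, edgeR 4.0.16 and DESeq2 1.42.0, the last pair for scaling only.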

Additional observations from a re-analysis of the deposited data

Results flagged for a closer look

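For 3 genes the ratio between the libraries lay on opposite sides of 1 in different types, and the difference between the types was not tested. Sdf2l1 was 2.07-fold higher (1.80 to 2.40) in early granulocyte-like cells of the Mg-TAGelMA library than in those of the Mg library, and 2.39-fold lower (1.83 to 3.08) in plasma cell-like cells. Thinned to 1000 UMIs per cell, its plasma cell ratio was 4.95 (0.782 to 206), on the other side of 1. Pdia4 was 2.58-fold higher (2.01 to 3.38) in early granulocyte-like cells and 2.17-fold lower (1.74 to 2.68) in plasma cell-like cells. Edem1 was 2.48-fold higher (2.06 to 2.98) in B progenitor-like cells and 2.04-fold lower (1.65 to 2.51) in mature neutrophil-like cells.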

How the results depend on the processing

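Of 115 counts of genes recomputed under an alternative, 100 stayed within 1.5 times the reported count. Of 766 recomputed ratios past the size rule none changed direction, and of 589 short of it 31 crossed 1, among them the plasma cell ratios of Ddit3, Atf4, Canx, Pdia3 and P4hb in the Mg-TAGelMA library under another scaling. Another CPM minimum or fold limit alters the calls but no ratio, so the ratios counted under these settings could not change direction. Of the reported 3 gene and type pairs higher in the Mg-TAGelMA library, the count was 1 with at least 4 markers (which left Pdia4 and Edem1 uncompared, their types having 91 and 99 cells in one library), 1 with TMM scaling, 1 with size factors, 8 at 1.5-fold, and 0 without Gm42418 and AY036118 and with cells thinned to 1000 UMIs. Of the reported 2 lower pairs, it was 9 with clusters in place of gates, 6 without Gm42418 and AY036118, 17 at 1.5-fold, and 4 thinned. With genes of up to 8 kb of intron alone it was 0, and the higher count was 4. Both Hsp90b1 pairs were left out there by construction, since Hsp90b1 has 11.3 kb, and no gene with shorter introns was lower in the 8 types counted. In plasma cell-like cells, which stand apart from these types, Calr was lower there, at 0.393 (0.323 to 0.479). Over all kept cells 2 genes were higher at 1.5-fold, against 0 at 2-fold. In early granulocyte-like cells of the Mg library 10 genes were higher with size factors and 15 at 1.5-fold, against 6. In plasma cell-like cells of the Mg library 9 were higher after thinning, against 25. Thinning left 1000 UMIs in each of the 11 cells, and fewer UMIs give wider intervals. The causes of these changes in the counts were not tested. Clusters gave no plasma cell cluster in the Mg library, and early granulocyte-like cells fell below 100 cells in the Mg library with at least 500 genes, with 4 markers, with clusters and after thinning, so these settings have no ratio between the libraries for that type. No paired analysis was possible because each nail has 1 library. The 11 plasma cell-like cells of the Mg library, with 173097 UMIs, limit every value that rests on them.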
